A study of Homo sapiens with 4 samples.

Results

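The protein-coding protocadherin genes were described in NCC-IT-A3, a human embryonal carcinoma cell line, after barasertib or its solvent. Members were chosen by name: the Entrez identifiers in the deposited tables were mapped to current symbols, and every protein-coding gene whose symbol begins with PCDH was taken. This gave 66 of 27685 gene identifiers, of which 65 are described here, namely 15 of the alpha cluster, 16 of the beta cluster, 22 of the gamma cluster and 12 non-clustered genes. The study holds 4 libraries of polyadenylated RNA. In 2 of them the cells had received 100 nM barasertib, an inhibitor of the mitotic kinase Aurora B, for 4 days, and in the other 2 they had received DMSO for the same 4 days. All 4 come from the same line in the same serum-containing medium, and the labels name no genetic change. The labels number the libraries of a group 1 and 2 and do not say whether they were grown separately. The spread behind each p-value is therefore that of these libraries alone and may be technical.

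Protocadherins are cell-surface adhesion proteins of the cadherin family. The clustered genes lie in tandem arrays on chromosome 5, where each variable exon has its own promoter and encodes the whole outer part of the protein, the membrane span and a short inner stretch. Alpha and gamma transcripts are spliced from a chosen variable exon to exons that all genes of the cluster share, whereas beta genes consist of a variable exon alone. In neurons, a small and partly random set of promoters is used in each cell, under the control of DNA methylation, the CCCTC-binding factor CTCF and cohesin, while the C-type genes at the ends of the alpha and gamma arrays are used more uniformly. Non-clustered protocadherins stand alone in the genome and serve in cell sorting, epithelial adhesion and the wiring of the nervous system.

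Values are TPM, a relative transcript abundance scaled by transcript length and to a fixed total, so levels can be set beside each other between genes. Each library listed TPM summing to 1000000, and the depth estimated from the deposited coverage and FPKM was 4.22 to 4.59 Gb of aligned bases. Replicate libraries correlated at r = 0.992 (barasertib) and 0.993 (DMSO) across tested genes. Differences are given as the difference of mean log2(TPM + 1), which understates the change of low genes, and were tested with limma for the 13938 genes that averaged 1 TPM or more, at an adjusted p under 0.05. The median of all tested genes was 0.11 higher with barasertib, and 74.8% of all calls were increases. Scaling by median-of-ratios or quantiles lowered that median by 0.11 and 0.12 and brought the share of increases to 49.1% and 50.9%, so a change near 0.11 is no more than that of the typical gene.

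In cells given DMSO, protocadherin RNA was spread over many genes at low to moderate levels. PCDH8 (17.5 ± 3.98 TPM, SD, n = 2) and PCDHB5 (17.03 ± 0.326 TPM) stood at the top, and these neighbours did not differ beyond their spread. PCDH18 followed with 13.9 ± 0.502 TPM and PCDHB2 with 10.4 ± 0.845 TPM, and these stood apart from each other. Among the gamma genes, PCDHGB4 (7.17 ± 0.389 TPM) and PCDHGA10 (6.67 ± 1.13 TPM) led and were within each other's spread. Alpha genes were lower, with PCDHAC1 at 4.19 ± 0.0062 TPM and PCDHAC2 at 2.53 ± 0.291 TPM above the other alpha genes. With barasertib, PCDH1 moved from rank 8 to rank 4 of the 65 and PCDHAC2 from rank 14 to rank 7, while PCDHB5 and PCDH8 held the top 2 places in both groups.

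Of the 65 genes, 34 reached the minimum of 1 TPM and were tested, 6 alpha, 10 beta, 12 gamma and 6 non-clustered. PCDH10, with a mean of 1.03 TPM, was the lowest gene inside the minimum, and PCDHA12, with 0.891 TPM, the highest outside it. With barasertib, 5 of the 34 rose and 0 fell (limma, adjusted p under 0.05), and 10, all of them higher, had an unadjusted p under 0.05. The 5 make 14.7% of the tested members, below the 22.0% of all tested genes that rose, and 7.44% of all tested genes fell, which makes 29.5% called in either direction. The genes that rose were PCDH1 and PCDH10 of the non-clustered genes, PCDHAC1 and PCDHAC2 of the alpha cluster, and PCDHB5 of the beta cluster, and no gamma gene rose. PCDH1, PCDHAC2 and PCDHAC1 rose under each of the 3 scalings, as did 10.7% of all tested genes. The count was 2 without barasertib replicate 1 and 3 without barasertib replicate 2. PCDH10 fell under the minimum without either of these libraries, PCDHB5 lost its call without either, and PCDHAC1 lost it without replicate 1.

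**Figure D1:**
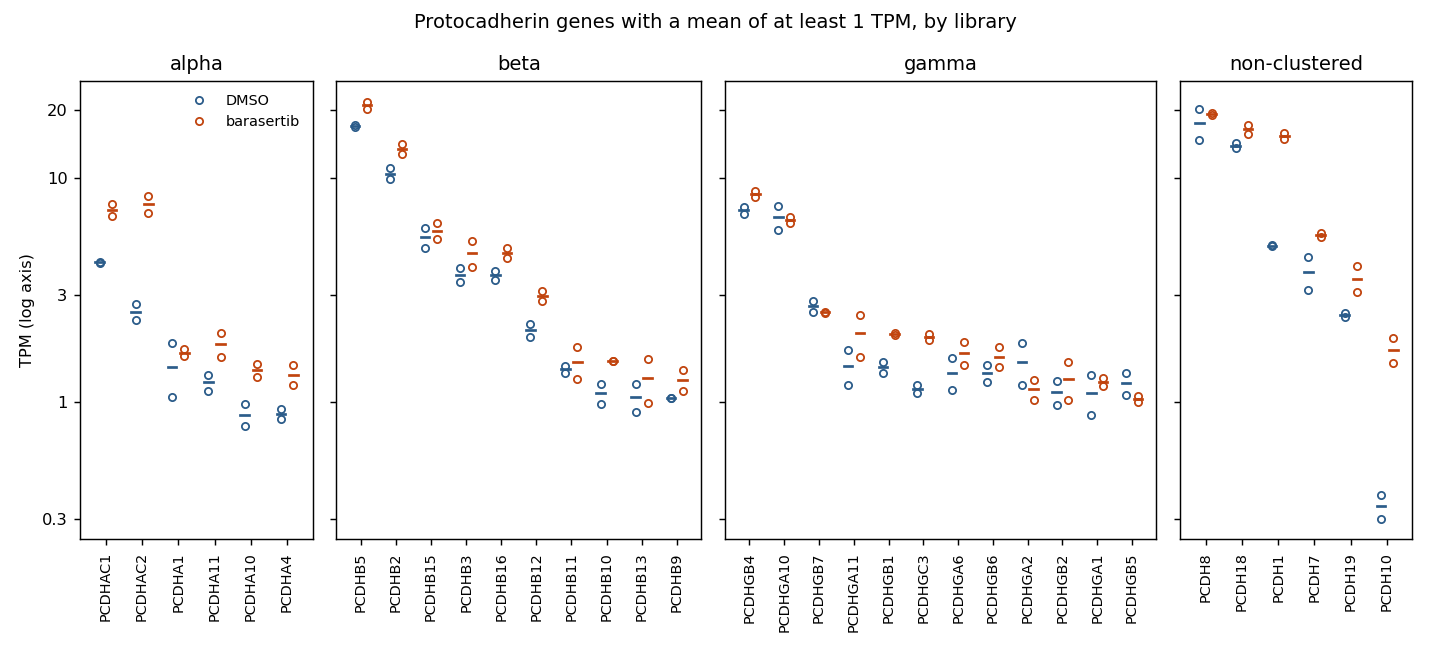
TPM on a log axis of the 34 tested protocadherin genes, grouped by class, with a point for each of the 4 libraries. The barasertib libraries of PCDH1 (15.8 and 14.8) and PCDHAC2 (8.26 and 6.98) lie well above the DMSO libraries, while most gamma genes overlap.

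PCDH1, on chr5:141232676-141257975 (hg19, minus strand), is an adhesion protein best known from airway epithelium. It was listed at 15.8 and 14.8 TPM in the barasertib libraries and at 5.01 and 4.96 TPM in the DMSO libraries. Both treated libraries were thus about 3 times as high as both controls, 3.07-fold by the means, and replicates lay close together. The log2 difference was 1.45 ± 0.0911 (SE; limma, adjusted p = 0.000469), or 1.34 above the median of all genes. This call was kept in 16 of 16 alternative analyses, with adjusted p between 3.15e-05 and 0.0125. It does not overlap the clusters in the files' coordinates, and its exons held no stretch of 100 bases found in another protocadherin gene. Its promoter is printed because this was the largest fitted difference of any member. It gives the 250 bases before the RefSeq start (GRCh38.p14) 5' to 3' with CpG dinucleotides, the sites of DNA methylation, in capitals; there are 6.
PCDH1, - strand, chr5:141869628-141869877: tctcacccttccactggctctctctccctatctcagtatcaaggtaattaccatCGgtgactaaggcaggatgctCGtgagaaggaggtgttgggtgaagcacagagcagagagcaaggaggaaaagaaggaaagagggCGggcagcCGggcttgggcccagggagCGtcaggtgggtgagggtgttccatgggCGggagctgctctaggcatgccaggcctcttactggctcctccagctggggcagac

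PCDH10, a neuronal protocadherin that recruits the actin-regulating WAVE complex, lies on chr4:134070445-134115765 (hg19, plus strand). It was listed at 1.49 and 1.93 TPM with barasertib and at 0.384 and 0.302 TPM with DMSO. The treated libraries did not overlap the controls, and the log2 difference was 1.01 ± 0.203 (SE; limma, adjusted p = 0.0154). This gene passed the minimum only through its barasertib libraries, so among tested genes it had to differ. Its call was kept in 10 of the 10 alternatives that gave it a value and could not be computed in the others. The divergent transcript PCDH10-DT, a non-coding gene beside it, was listed at 0.184 TPM at most.

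The other tested non-clustered genes had smaller differences, none of which passed the test. PCDH7, which binds the phosphatase inhibitor SET through its inner tail, was listed at 5.65 and 5.42 TPM with barasertib and at 3.16 and 4.42 TPM with DMSO (limma, adjusted p = 0.0724, and 0.0302 without DMSO replicate 2). PCDH18 was listed at 15.6 and 17.3 TPM with barasertib and at 13.6 and 14.3 TPM with DMSO (adjusted p = 0.0973, limma). The treated libraries of both genes were above the controls, by 1.46-fold and 1.18-fold of the means. PCDH19, the X-linked gene of a childhood epilepsy, was listed at 3.08 and 4.03 TPM with barasertib and at 2.39 and 2.49 TPM with DMSO (limma, adjusted p = 0.107). PCDH8, a relative of the paraxial protocadherin of the early mesoderm, was listed at 19.1 and 19.4 TPM with barasertib and at 14.7 and 20.4 TPM with DMSO. Its groups overlapped, and its log2 difference turned from 0.14 to -0.08 without DMSO replicate 1.

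Alpha and gamma genes overlap in the files, which bears on how their values can be read. In hg19 each of the 15 alpha genes runs on the plus strand of chromosome 5 to the same end, 140391929, so each overlaps the other 14, and the 22 gamma genes end within 10 bases of 140892546. In the GENCODE v29 models, 2866 exonic bases were common to all 15 alpha genes and made up 18.8 to 53.5% of a gene's exonic bases (median 46.7%). For gamma, 2181 bases were common to all 22 and made up 25.2 to 45.9% (median 43.5%). Bases shared with at least 1 other member, which include these, made up 19.2 to 56.6% of an alpha gene and 27.6 to 64.4% of a gamma gene. Reads from these shared exons do not by themselves tell which gene they came from, and their division among the genes was made in the authors' processing. Beta genes share no annotated exon, but a median of 6.04% of their 100-base stretches, and up to 25.7% in PCDHB8, also occur in another protocadherin gene. Outside these arrays, PCDHB1 overlapped the antisense gene PCDHB1-AS1 and PCDH9 overlapped 3 antisense genes, all listed at 0, PCDH15 overlapped 2 other genes, and no other beta or non-clustered member overlapped a listed gene. Single alpha and gamma values are therefore uncertain in a way that PCDH1 and most beta values are not.

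Within the alpha cluster, the C-type genes at the 3' end of the array were higher than the tandem genes PCDHA1 to PCDHA13. PCDHAC2, a gene needed for the tiling of serotonergic axons in the mouse, lies on chr5:140345747-140391929 (hg19, plus strand). It was listed at 8.26 and 6.98 TPM with barasertib and at 2.74 and 2.32 TPM with DMSO. Both treated libraries lay far above both controls, 3.01-fold by the means, and the log2 difference was 1.29 ± 0.137 (SE; limma, adjusted p = 0.00208). This is 1.18 above the median of all genes, and the call was kept in 16 of 16 alternatives. PCDHAC1, its C-type neighbour on chr5:140306302-140391929, was listed at 7.65 and 6.74 TPM with barasertib and at 4.19 and 4.20 TPM with DMSO, 1.71-fold by the means. Low tandem genes had folds near or above that, such as PCDHA13 (2.12) and PCDHA12 (1.68), and log2(TPM + 1) shrinks these. The groups of PCDHAC1 did not overlap either, and the log2 difference was 0.66 ± 0.114 (SE; limma, adjusted p = 0.00957, and 0.0591 without barasertib replicate 1). From coverage scaled to a common total in place of TPM, the differences were 1.35 for PCDHAC2 and 0.54 for PCDHAC1, and both were called.

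None of the tested tandem alpha genes passed the test (limma, adjusted p from 0.207 to 0.638). PCDHA11 was at 1.59 and 2.02 TPM with barasertib and 1.12 and 1.32 TPM with DMSO. PCDHA10 was at 1.29 and 1.48 TPM against 0.977 and 0.778 TPM, and PCDHA4 at 1.19 and 1.46 TPM against 0.837 and 0.934 TPM. The treated libraries of these 3 genes lay above the controls, but PCDHA10 and PCDHA4, like PCDH10, averaged under 1 TPM with DMSO and were tested only through their barasertib libraries, which favours such an order. By contrast, the libraries of PCDHA1 overlapped (1.72 and 1.60 TPM with barasertib, 1.83 and 1.05 TPM with DMSO). PCDHAC2 made up 33.3 and 28.8% of summed alpha TPM with barasertib and 20.4 and 17.9% with DMSO. The share of PCDHAC1 was 30.8 and 27.8% with barasertib and 31.3 and 32.4% with DMSO.

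Promoter composition, which the choice of members did not use, differed between the C-type and tandem alpha genes. RefSeq (GRCh38.p14) gave a window of 300 bases, 250 before to 50 after the start, for 57 of the 65 genes. G and C made up 33.7 to 40.3% of the window in 11 tandem alpha genes, 66.0% in PCDHAC1 and 63.0% in PCDHAC2, against a median of 58.3% over all 27305 promoters. The window held 3 to 9 CpG dinucleotides in the tandem alpha genes, 27 in PCDHAC1 and 15 in PCDHAC2. In the gamma cluster, 18 tandem genes ranged from 32.3 to 51.3% and the C-type PCDHGC3 and PCDHGC4 stood at 59.0 and 60.7%. The 250 bases before the start are printed 5' to 3' for the C-type alpha genes and for PCDHA4 and PCDHA11, a pair of tandem genes that did not pass the test, with CpG in capitals. They hold 13 CpG in PCDHAC2, 18 in PCDHAC1, 5 in PCDHA4 and 5 in PCDHA11, and no methylation was measured here.
PCDHAC2, + strand, chr5:140966226-140966475: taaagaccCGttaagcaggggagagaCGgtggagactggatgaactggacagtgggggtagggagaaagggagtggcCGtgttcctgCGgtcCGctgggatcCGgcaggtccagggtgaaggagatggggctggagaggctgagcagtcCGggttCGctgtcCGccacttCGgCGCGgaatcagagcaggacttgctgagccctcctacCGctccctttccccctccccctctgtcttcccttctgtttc
PCDHAC1, + strand, chr5:140926049-140926298: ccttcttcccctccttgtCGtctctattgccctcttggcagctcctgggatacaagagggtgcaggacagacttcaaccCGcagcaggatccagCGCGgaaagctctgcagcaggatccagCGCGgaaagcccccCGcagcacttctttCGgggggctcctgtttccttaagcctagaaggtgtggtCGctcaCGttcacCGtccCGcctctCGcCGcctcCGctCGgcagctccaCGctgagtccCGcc
PCDHA4, + strand, chr5:140806818-140807067: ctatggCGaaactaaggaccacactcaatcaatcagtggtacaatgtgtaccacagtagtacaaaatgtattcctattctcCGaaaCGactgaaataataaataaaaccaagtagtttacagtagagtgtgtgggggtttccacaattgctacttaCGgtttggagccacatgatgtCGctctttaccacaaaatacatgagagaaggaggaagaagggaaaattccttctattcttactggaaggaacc
PCDHA11, + strand, chr5:140868707-140868956: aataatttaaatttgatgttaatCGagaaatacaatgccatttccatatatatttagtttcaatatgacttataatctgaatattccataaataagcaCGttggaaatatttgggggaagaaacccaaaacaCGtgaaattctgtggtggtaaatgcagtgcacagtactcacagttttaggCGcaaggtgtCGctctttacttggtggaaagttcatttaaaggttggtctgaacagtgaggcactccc

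**Figure D2:**
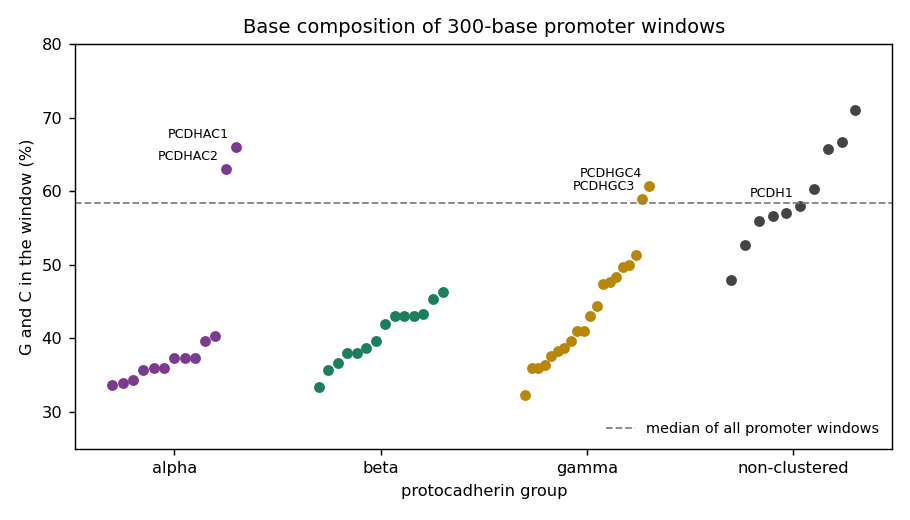
Percentage of G and C in 300-base RefSeq promoter windows (vertical axis) of the protocadherin genes by group, with a point per gene and the median of all promoters as a line. PCDHAC1 (66.0%) and PCDHAC2 (63.0%) lie above the 58.3% median of all promoters and the tandem alpha genes below it, at 33.7 to 40.3%.

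The beta genes had the largest summed TPM of the 3 clusters, and 10 of 16 were tested. PCDHB5, on chr5:140514788-140517709 (hg19, plus strand), was listed at 20.3 and 21.8 TPM with barasertib and at 17.3 and 16.8 TPM with DMSO. The treated libraries did not overlap the controls, and the log2 difference was 0.29 ± 0.0761 (SE; limma, adjusted p = 0.0354). This was 0.18 above the median of all genes. The call was lost in 8 of 16 alternatives, among them median-of-ratios scaling (0.141), quantiles (0.126) and the omission of barasertib replicate 1 (0.0671) or 2 (0.125) or DMSO replicate 1 (0.094) or 2 (0.127). PCDHB2, the second beta gene by level, was listed at 14.2 and 12.7 TPM with barasertib and at 11.04 and 9.85 TPM with DMSO and missed the threshold (limma, adjusted p = 0.0504, and 0.0339 to 0.191 over the alternatives, of which 4 called it). PCDHB5 kept a steady share of summed beta TPM, at 33.4 and 34.5% with barasertib and 34.3 and 34.1% with DMSO.

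Of the other tested beta genes, none passed the test (limma, adjusted p from 0.117 to 0.838). PCDHB12 was at 2.81 and 3.12 TPM with barasertib and 2.23 and 1.95 TPM with DMSO, PCDHB16 at 4.39 and 4.88 against 3.84 and 3.51 TPM, and PCDHB3 at 4.02 and 5.24 against 3.95 and 3.43 TPM. PCDHB10 was at 1.53 and 1.53 TPM against 1.20 and 0.984 TPM, and PCDHB9 at 1.39 and 1.12 TPM against 1.04 and 1.04 TPM. In these 5 genes both treated libraries exceeded both controls. They overlapped in PCDHB15 (5.33 and 6.27 TPM with barasertib, 4.88 and 5.99 with DMSO), PCDHB11 (1.27 and 1.76 against 1.35 and 1.45) and PCDHB13 (1.56 and 0.992 against 0.904 and 1.20). The log2 differences of PCDHB9, PCDHB11, PCDHB13 and PCDHB15 turned negative in at least 1 alternative, quantiles in each case.

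Beta promoters shared a short word. The letters TGGCGCTG, searched on both strands, stood in 12 of 14 beta windows (not in PCDHB1 and PCDHB14), in 1 gamma window (PCDHGB4) and in 0 alpha and 0 non-clustered windows, against 1.92% of all promoter windows. The word was chosen after the clustered promoters had been seen, so its share among them carries no test. All 12 beta matches were on the gene's own strand. That of PCDHB8 began at the start itself, and the others began 14 to 82 bases before it. The stretches of the 5 beta genes with the highest mean level are printed 5' to 3' with the word in capitals. A match describes letters and is not evidence of binding.
PCDHB5, + strand, chr5:141135168-141135205: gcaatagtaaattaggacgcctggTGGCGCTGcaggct
PCDHB2, + strand, chr5:141094533-141094570: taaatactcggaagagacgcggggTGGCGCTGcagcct
PCDHB15, + strand, chr5:141245303-141245340: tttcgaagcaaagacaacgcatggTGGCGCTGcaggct
PCDHB3, + strand, chr5:141100382-141100419: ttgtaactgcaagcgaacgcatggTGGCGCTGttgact
PCDHB16, + strand, chr5:141182299-141182336: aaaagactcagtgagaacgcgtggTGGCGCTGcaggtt

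No gamma gene passed the test (limma; 1 of 12 had an unadjusted p under 0.05), and the 12 tested genes had a median log2 difference of 0.12 beside 0.11 for all genes. PCDHGC3, the C-type gamma gene used in cortical dendrite branching and linked to Wnt signalling through AXIN1, was listed at 2.01 and 1.88 TPM with barasertib and at 1.10 and 1.19 TPM with DMSO (limma, adjusted p = 0.0861). Its means differed 1.70-fold, near the 1.71-fold of PCDHAC1, but at a lower level, where log2(TPM + 1) shrinks a difference more. The 3 C-type gamma genes summed to 2.28 and 2.24 TPM with barasertib and 1.27 and 1.23 TPM with DMSO, a ratio of 1.81. PCDHGB1 was listed at 1.996 and 2.03 TPM with barasertib and at 1.35 and 1.51 TPM with DMSO (adjusted p = 0.192, limma). PCDHGC3 and PCDHGB1 were called only when the mean-variance trend was left out, and in both the treated libraries exceeded the controls. PCDHGB4, the gamma gene with the highest level, did so too, at 8.17 and 8.76 TPM against 7.45 and 6.90 TPM (limma, adjusted p = 0.156).

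Among the remaining gamma genes the libraries overlapped or the order was opposite. PCDHGA10 was at 6.31 and 6.68 TPM with barasertib and 5.87 and 7.47 TPM with DMSO, PCDHGB7 at 2.50 and 2.52 against 2.84 and 2.51, and PCDHGA11 at 1.60 and 2.45 against 1.71 and 1.20. The differences of PCDHGA10 and PCDHGB7 were close to 0 and changed sign between alternatives. PCDHGA6 was at 1.85 and 1.46 TPM against 1.57 and 1.13 TPM, PCDHGB6 at 1.43 and 1.76 against 1.47 and 1.23, and PCDHGA2 at 1.254 and 1.03 against 1.83 and 1.19. PCDHGB2 was at 1.02 and 1.51 TPM against 0.969 and 1.24 TPM, and PCDHGA1 at 1.29 and 1.18 against 1.32 and 0.871. PCDHGB5 was the tested member whose treated libraries (1.07 and 0.998 TPM) both lay below the controls (1.35 and 1.08 TPM), though by little (limma, adjusted p = 0.66).

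**Figure D3:**
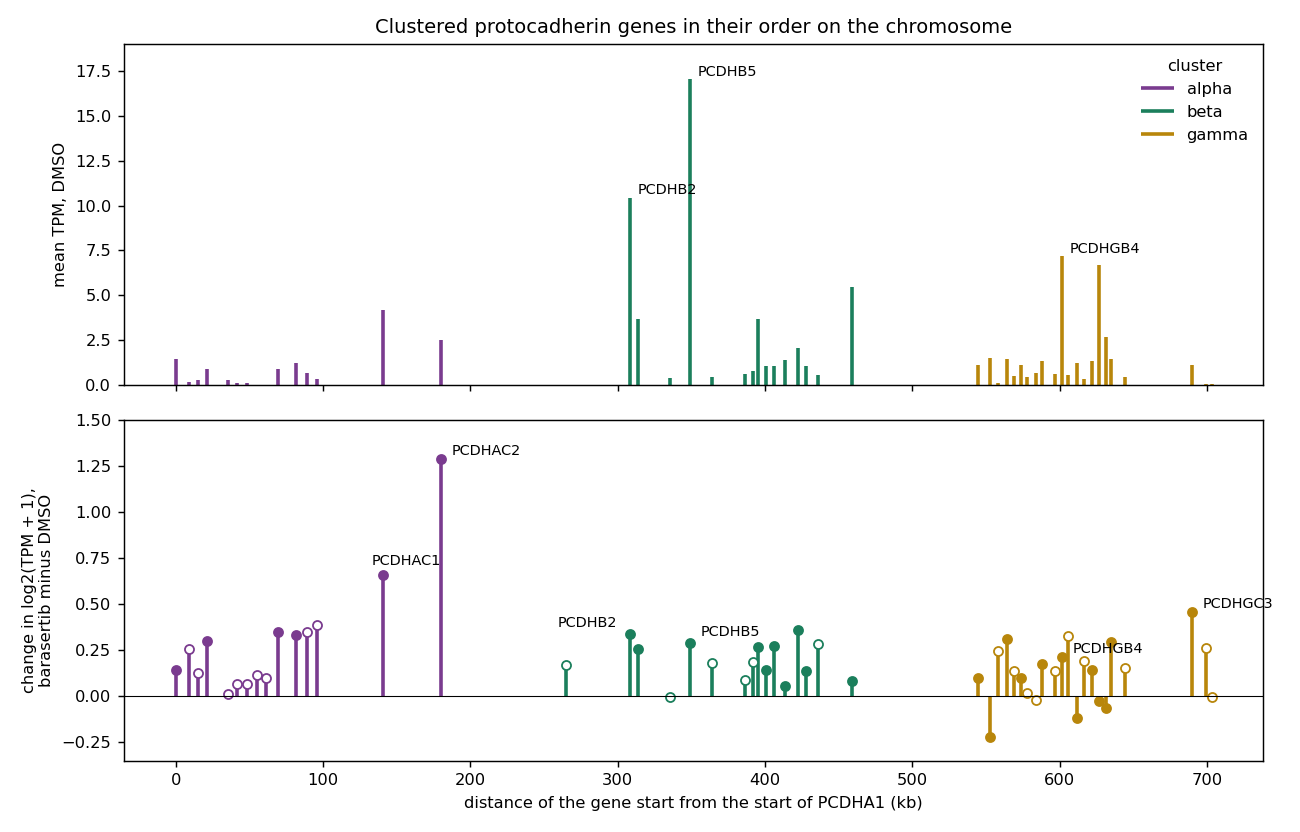
Clustered protocadherin genes by distance of their start from that of PCDHA1 in kb. The upper panel gives the mean TPM in the DMSO libraries and the lower panel the difference of mean log2(TPM + 1), with filled points for tested genes and open points for genes under 1 TPM. The C-type genes PCDHAC1 (0.66) and PCDHAC2 (1.29) exceed the other clustered genes on this scale, which shrinks the differences of low genes.

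Counted by library, both treated libraries lay above both controls in 20 of the 34 tested genes (58.8%), beside 49.1% of all tested genes, and below them in 1, beside 19.7% of all tested genes. The 20 comprised 5 of 6 alpha, 7 of 10 beta, 3 of 12 gamma and 5 of 6 non-clustered genes. PCDHA10, PCDHA4 and PCDH10, which reached the minimum only through their barasertib libraries, are among them, and without these 3 the count was 17 of 31, with 3 of 4 alpha and 4 of 5 non-clustered genes. The median log2 difference was 0.34 for alpha, 0.26 for beta, 0.12 for gamma and 0.43 for non-clustered genes, and 0.26 over all 34, beside 0.11 for all tested genes. Without the same 3 genes it was 0.49 for alpha, 0.40 for non-clustered genes and 0.23 over the remaining 31. Differences between the classes were not tested. Alpha genes share exons with each other, as do gamma genes, so the genes counted in these clusters are not separate observations.

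Summed over all members of a class, alpha TPM was 24.8 and 24.2 with barasertib and 13.4 and 12.96 with DMSO, a ratio of 1.86. The non-clustered sum was 62.7 and 65.0 TPM against 40.6 and 47.9 TPM, a ratio of 1.44. A few genes carried much of both sums: without PCDHAC1 and PCDHAC2 the alpha ratio was 1.501, and without PCDH1 the non-clustered ratio was 1.24. The beta sum was 60.8 and 63.1 TPM with barasertib and 50.4 and 49.3 TPM with DMSO (ratio 1.24), and the gamma sum 36.1 and 37.2 TPM against 32.6 and 31.2 TPM (ratio 1.15). Treated sums lay above control sums in each class, an order that 49.1% of all tested genes had singly. An alpha or gamma sum can also depend on how reads of the shared exons were divided among the genes. TPM is scaled by transcript length, and the exonic bases of alpha genes ranged from 5354 in PCDHA13 to 15224 in PCDHA10. The size of this dependence was not tested. The log2 ratio of the gamma sum, 0.20, was -0.11 after quantile normalisation, so its direction depends on the scaling, and that of the alpha sum, 0.89, was 0.56. For sums the quantiles were taken over all genes listed above 0 in any library, and for single genes over the tested genes.

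**Figure D4:**
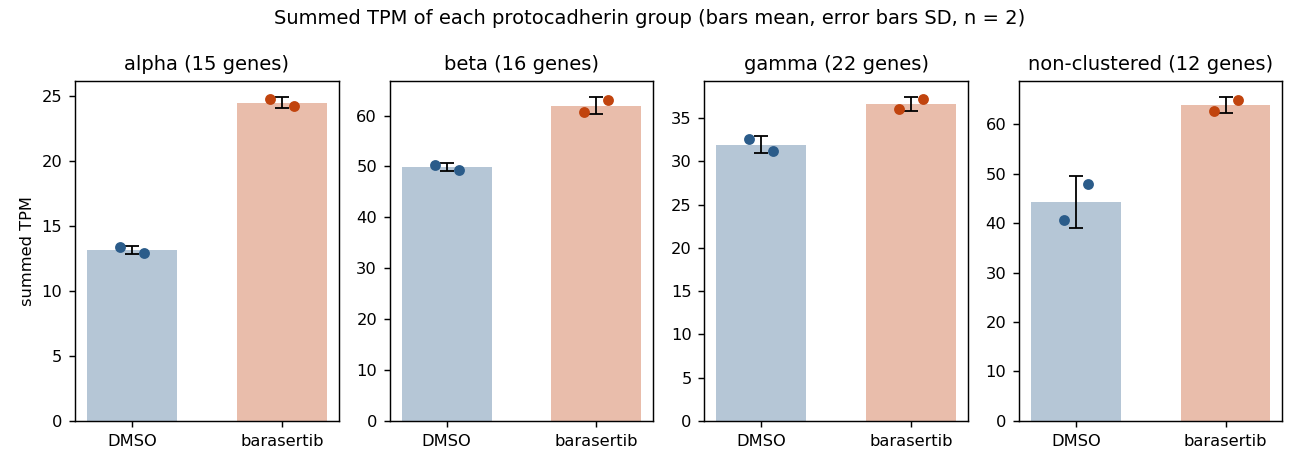
Summed TPM of the alpha, beta, gamma and non-clustered protocadherin genes (vertical axes from 0, bars the mean of 2 libraries, error bars the SD, points the libraries). Alpha sums are 24.8 and 24.2 with barasertib and 13.4 and 12.96 with DMSO, while gamma sums lie closer together.

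The 31 described members under 1 TPM comprised 9 alpha, 6 beta, 10 gamma and 6 non-clustered genes and were not tested. PCDHA12 (1.12 ± 0.213 TPM with barasertib, 0.665 ± 0.2 with DMSO, SD, n = 2), PCDHB8 (1.01 ± 0.187 against 0.766 ± 0.0238) and PCDH9 (0.906 ± 0.241 against 0.651 ± 0.336) had the highest means, followed by PCDHB14 (0.927 ± 0.145 against 0.583 ± 0.109) and PCDHGA8 (0.941 ± 0.132 against 0.551 ± 0.146). Among the 5 largest differences were also PCDH11X (0.809 ± 0.0478 against 0.39 ± 0.0949) and PCDHA13 (0.777 ± 0.0199 against 0.366 ± 0.179). PCDH11X shares 32.5% of its 100-base stretches with another protocadherin gene. Its coverage was only 0.0316 to 0.0888 over the 4 libraries. Coverage per TPM was 0.103, the lowest of the members listed above 0, beside a median of 1.32. PCDH15, which forms the tip links of inner-ear hair cells, was listed at 0 in all 4 libraries, and PCDHA8 in both DMSO libraries. In 16 of the 30 members listed above 0, or 53.3%, both treated libraries exceeded both controls, beside 31.8% of all genes in this range. In 0 of them they were lower, beside 6.67%. The shares of all genes cover every gene listed above 0 and under 1 TPM and were not matched to the members' levels, so the excess was not tested. The 16 included 6 alpha and 4 gamma genes. Genes of each of these clusters share exons, so their values are not separate observations.

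Genes that act with protocadherins were described from lists chosen by function. Of 26 tested regulators of clustered promoter choice, 6 rose and 0 fell (limma; 2 were lower at an unadjusted p under 0.05), a share near the 22.0% of all genes. The count was 4 without barasertib replicate 1 or 2. Of the 6, 5 rose under all 3 scalings. With median-of-ratios scaling, however, REST, SETDB1, TRIM28 and CTCF were called lower (limma, adjusted p = 0.0153, 0.0165, 0.0225 and 0.0487). With quantiles, REST, SETDB1, TRIM28 and STAG1 were called lower (limma, adjusted p = 0.0205, 0.0209, 0.0329 and 0.0458). The maintenance partner UHRF1, which guides DNA methylation after replication, was listed at 32.1 and 30.4 TPM with barasertib and at 16.6 and 17.2 TPM with DMSO (limma, adjusted p = 0.00109). DNMT3B, a de novo DNA methyltransferase whose loss alters promoter choice in the mouse, was listed at 459 and 433 TPM with barasertib and at 254 and 228 TPM with DMSO (limma, adjusted p = 0.000652). DNMT3A was at 72.4 and 63.2 TPM against 50.5 and 50.3 TPM (limma, adjusted p = 0.0114). The treated libraries of all 3 lay above the controls, and they were called whichever library was left out. ESCO2, which acetylates cohesin, was at 8.01 and 7.51 TPM against 4.15 and 5.10 TPM (limma, adjusted p = 0.0139, and 0.0792 and 0.0604 without barasertib replicate 1 and 2).

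Of 12 tested WAVE complex and actin partners, 5 rose and 0 fell (limma; 0 were lower at an unadjusted p under 0.05), beside 22.0% and 7.44% of all tested genes. Of the 5, 2 rose under all 3 scalings, and 3 and 2 genes of the list rose without barasertib replicate 1 and 2. CYFIP1, a WAVE subunit that binds the tails of several protocadherins, was listed at 92.6 and 88.8 TPM with barasertib and at 66.2 and 65.7 TPM with DMSO (limma, adjusted p = 0.0027). This call held whichever library was left out, whereas that of the subunit WASF1 (31.5 and 31.6 TPM against 23.6 and 25.2 TPM; limma, adjusted p = 0.0129) did not, with 0.0593, 0.0579 and 0.059 without barasertib replicate 1, barasertib replicate 2 and DMSO replicate 1. Of 12 kinases, phosphatases and adaptors that bind the tails, 2 rose and 2 fell, beside the same shares of all tested genes, which apply to the protease and atypical cadherin counts too. Under all 3 scalings 0 of these rose and 2 fell, and with a library left out 0 to 1 rose and 0 to 1 fell. The receptor kinase RET, at 26.3 and 25.1 TPM with barasertib and 33.1 and 31.9 TPM with DMSO, was among those that fell (limma, adjusted p = 0.0162, and up to 0.0736 without DMSO replicate 1). Of 8 protease genes, PSEN2, a catalytic subunit of gamma-secretase, rose (37.5 and 40.0 TPM against 26.8 and 25.5 TPM; limma, adjusted p = 0.0035). ADAM17 (limma, adjusted p = 0.0327) and NCSTN (adjusted p = 0.0139, limma) fell in that list and did so under all 3 scalings. Both lost the call without barasertib replicate 1 or 2. They did not both keep it without DMSO replicate 1 or 2. Of 10 tested atypical cadherins outside the PCDH name, CLSTN1 rose and FAT1 fell (limma, adjusted p = 0.0367 and 0.0266). FAT1 fell under all 3 scalings, whereas CLSTN1 did not rise under all of them. CLSTN1 lost its call whichever library was left out. FAT1 lost it without barasertib replicate 1 and without either DMSO replicate.

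Genes in and beside the clusters on 5q31 that are not protocadherins were also set beside the members. Of 15 tested, 8 rose and 0 fell (limma; 1 was lower at an unadjusted p under 0.05), beside 22.0% and 7.44% of all tested genes, with a median log2 difference of 0.25 beside 0.11. Of the 8, 5 rose under all 3 scalings. The count was 6 without any given library. RELL2, between the gamma cluster and PCDH1, was listed at 7.15 and 5.12 TPM with barasertib and at 2.04 and 2.40 TPM with DMSO, a log2 difference of 1.14 (limma, adjusted p = 0.00664). ARAP3, 171 kb from PCDH1 in hg19, was at 9.95 and 10.996 TPM against 7.18 and 6.28 TPM (limma, adjusted p = 0.0127, and 0.0709 without barasertib replicate 2). NDUFA2 and WDR55, on the far side of the alpha cluster, differed by 0.37 and 0.35 on the log2 scale (limma, adjusted p = 0.00326 and 0.0068). DELE1, the listed gene nearest to PCDH1 at 45.4 kb, was lower, at 29.7 and 29.3 TPM against 33.9 and 33.6 TPM. It missed the threshold on TPM (limma, adjusted p = 0.0652), was called lower with median-of-ratios scaling (0.0183) and quantiles (0.026), and is named here after its values were seen. With it, 7 of the 15 were not called.

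Markers of cell types moved between the groups as well. In bulk RNA, more cells of a type and more RNA per cell cannot be told apart. The label embryonal carcinoma had its markers in every library: all 14 tested, with NANOG at 246 and 259 TPM with barasertib and 168 and 159 TPM with DMSO. SOX2 was lower, at 381 and 398 TPM against 456 and 446 TPM (limma, adjusted p = 0.0143, and 0.0644 and 0.0608 without barasertib replicate 1 and DMSO replicate 1), and is named here after its values were seen. Of these 14, 8 rose and 2 fell, beside 22.0% and 7.44% of all tested genes, which are the shares for the marker counts that follow as well. Under all 3 scalings 4 rose and 2 fell, and without barasertib replicate 1 the counts were 4 and 1. Neural markers summed to 543 and 509 TPM with barasertib and 346 and 358 TPM with DMSO, and 4 of 8 tested rose and 1 fell. Under all 3 scalings 1 of these 8 rose and 1 fell. NES, an intermediate filament of progenitors, was at 300 and 270 TPM against 117 and 121 TPM (limma, adjusted p = 0.000307). It carried nearly all of the difference between the neural sums, so these sums do not show a broad rise. The neural factor PAX6 was at 0.0372 TPM at most. The count of 4 was 1 and 2 without barasertib replicate 1 and 2, and 2 without DMSO replicate 2. Of 5 tested fibroblast markers 4 rose, 3 of them under all 3 scalings. All listed fibroblast markers summed to 156 and 149 TPM against 24.7 and 26.0 TPM. THY1 made up most of that sum, at 120 and 111 TPM against 7.83 and 7.15 TPM (limma, adjusted p = 1.86e-05), while COL1A2 and DCN were listed at 0 in 3 libraries each. Of the endothelial markers, only KDR reached the minimum and it rose, while PECAM1 was at 0.159 TPM at most and EMCN at 0 in all libraries. The part of these markers in the protocadherin differences was not tested.

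**Figure D5:**
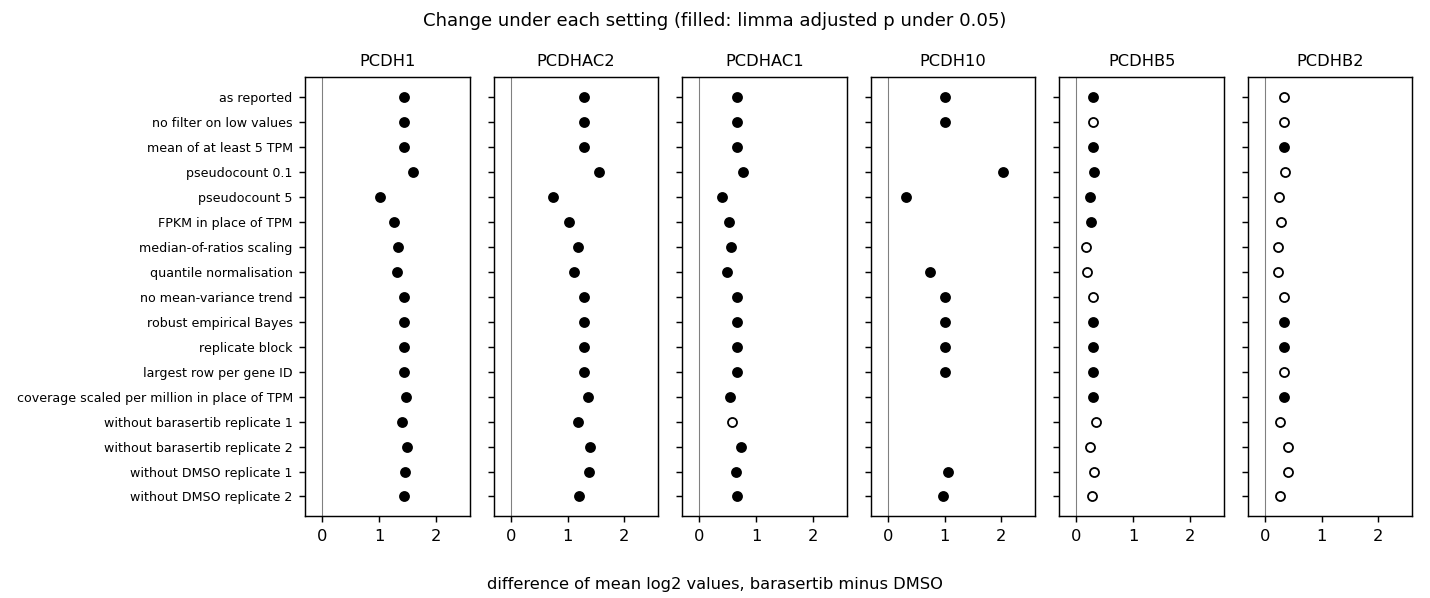
Difference of mean log2 values (barasertib minus DMSO, horizontal axes) of the 6 protocadherin genes with the smallest p, as reported and under each alternative analysis, with filled points for an adjusted p under 0.05. PCDH1 and PCDHAC2 are filled in all rows, PCDHB5 in 8 of the 16 alternatives and PCDHB2 in 4.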

How the data were processed

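Polyadenylated RNA of 4 libraries was sequenced with a stranded kit, per the labels' protocols. The authors aligned reads to hg19 with HISAT2 and summarised them with StringTie, per the submitters' processing notes. Versions, options and the use of strand: not given in the sources used here. The deposited tables hold coverage (a signal, the mean depth), FPKM and TPM per gene row, per the file headers. Rows were summed per Entrez identifier, and RefSeq (GRCh38.p14) named 27559 of the 27685. Depth was estimated from deposited coverage divided by deposited FPKM.

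Members and lists were chosen with earlier results of these data known. All tested members are named, and up to 4 called genes of a list. Values of 1 member on the Y chromosome are not given. The 13938 genes averaging 1 TPM or more were tested with limma 3.58.1 in R 4.3.3. The model of log2(TPM + 1) held the group alone, variances were moderated along a trend with the mean (4.09 prior degrees of freedom beside 2 residual ones), and two-sided p-values were adjusted by the method of Benjamini and Hochberg. The fit was tested on simulated data with 200 changed genes. It recovered 78.4% of 1.5-fold and 96.6% of 2-fold changes, and 78.7% of 2-fold changes at a mean log2(TPM + 1) under 2. A low gene that did not pass may therefore still have changed. Class sums were described without a test. Shared exons were computed from GENCODE v29, whose coordinates were not converted. The 16 alternatives vary the filter, pseudocount, unit, scaling, moderation, replicate block and libraries used, and coverage in place of TPM was added after the data were seen. Same-numbered libraries deviated together with r = 0.0229, so the numbers were not taken to pair them.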

Additional observations from a re-analysis of the deposited data

How the results depend on the processing

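Over 67 single genes, 895 alternative values kept their direction and side of the threshold, 91 kept the direction but lost the call, 7 gained it and 23 changed sign. Of all genes, 3071 rose, against 1663 with median-of-ratios scaling, 1649 with quantiles and 1365 to 2181 with 1 library left out. The 1037 that fell became 1721, 1590 and 601 to 699, and 674 without the mean-variance trend. The 5 protocadherin genes that rose became 3 with median-of-ratios scaling, where PCDH10 was not tested, and 2 to 5 with 1 library left out. With the replicate number as a block, 6 protocadherin genes rose, PCDHB2 being added. Of the 6 function lists together, 23 rose and 5 fell, against 13 and 13 with median-of-ratios scaling, 13 fell with quantiles, 1 fell without the trend, and 13 to 17 rose and 0 to 2 fell with 1 library left out. The log2 ratios of class sums were 0.89 for alpha (0.78 with median-of-ratios scaling, 0.56 with quantiles, 1.07 from coverage), 0.31 for beta (0.20 and 0.12 with these scalings) and 0.20 for gamma (0.080 and -0.11). Quantiles of the sums were taken over all genes listed above 0, those of single genes over the tested genes. The cause of the shifts between settings was not tested.

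Sign changes were seen only in protocadherin genes that did not pass the test. With quantiles the log2 difference was -0.048 for PCDHGA6, -0.075 for PCDHGB6, -0.11 for PCDHB9, -0.069 for PCDHA1, -0.12 for PCDHB13, -0.088 for PCDHB15, -0.15 for PCDHGA1, -0.14 for PCDHGB2 and -0.16 for PCDHB11. With median-of-ratios scaling it was -0.019 for PCDHB15 and -0.012 for PCDHB11, and from coverage -0.23 for PCDHGB6 and 0.10 for PCDHGB7. With 1 library left out it ranged from -0.077 to 0.36 for PCDH8, -0.088 to 0.38 for PCDHA1, -0.041 to 0.32 for PCDHB13, -0.043 to 0.21 for PCDHB15, -0.057 to 0.25 for PCDHGA1, -0.057 to 0.26 for PCDHGB2, -0.083 to 0.20 for PCDHB11 and -0.18 to 0.12 for PCDHGA10. Depth limits the members under 1 TPM, whose coverage was 2.27 at most and 0.377 in the median.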
